A study of Mus musculus with 9 samples.

Results

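The genes described here are the nuclear-encoded subunits of the mitochondrial respiratory chain and the ATP synthase, in RNA from whole mouse tongue. They were taken by the start of the gene symbol: Nduf for complex I, Sdh followed by a, b, c or d for complex II, Uqcr for complex III, Cox4 to Cox8 for complex IV, and Atp5 for the ATP synthase. This rule found 94 of the 20512 genes in the deposited table. By complex they are 36 genes of complex I, 4 of complex II, 8 of complex III, 14 of complex IV, where Ndufa4 was placed, and 15 of the ATP synthase. The rule also takes in 9 assembly factors and 8 paralogues or associated proteins. The transgene group held 4 libraries from mice with K14-rtTA and TREFLBmi-1, and the control group held 5 libraries from mice with K14-rtTA alone. All mice were about 6 weeks old, came from a cross of C57/Bl6 with FVB/NJ, and drank 2 mg/mL doxycycline for 1 week. K14-rtTA is a doxycycline-dependent activator under the keratin 14 promoter, which is active in basal epithelial cells, and TREFLBmi-1 is the Bmi1 transgene that it induces. Bmi1 is a Polycomb protein. The comparison shows which transcripts of the whole organ, muscle included, differed when the transgene was present. Whether every library is a separate animal is not stated in the labels, and p-values rest on the scatter among the 9 libraries.

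The respiratory chain sits in the inner mitochondrial membrane. Complexes I and II pass electrons from NADH and succinate to ubiquinone, complex III passes them to cytochrome c, and complex IV passes them to oxygen. Complexes I, III and IV pump protons, and the ATP synthase uses the resulting gradient to make ATP. Most subunits are encoded in the nucleus, and skeletal muscle, which makes up much of the tongue, is rich in all 5 complexes. Subunits 6a, 7a and 8 of complex IV come in a muscle isoform and a ubiquitous isoform, encoded by separate genes.

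Values are the authors' log2 normalised expression, on which each step of 1 doubles the level, and differences are transgene minus control. Read counts were not analysed here, so the depth behind each value is unknown. The 9 libraries can vary in 7 directions within the 2 groups, but the deposited values vary in 5. They have the form left by removing the means of 3 sets of libraries, called strata here, that no label names. Stratum 1 holds transgene replicate 1 and control replicate 1. Stratum 2 holds transgene replicates 2, 3 and 4 and control replicates 2 and 3. Stratum 3 holds control replicates 4 and 5 and no transgene library. The main test was limma with terms for group and stratum, and a gene was called at a Benjamini-Hochberg adjusted p under 0.05 over 14490 tested genes. The fit with the group as its only term gives the same differences, counts 7 residual degrees of freedom where 5 exist, and is given beside it. Bmi1 stood at 12.49, 12.05, 14.87 and 11.94 in transgene libraries, against 10.74, 10.21, 10.24, 10.45 and 10.34 in control libraries. Each transgene library was above each control library, with a difference of 2.44 (SE 0.60, adjusted p 0.0672 in limma with strata and 0.00719 with the group alone).

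Transcripts of the chain stood slightly lower in transgene tongues across the complexes, except in stratum 1, where the medians of the 5 complexes were positive. Very few members passed the test. Of 91 tested members, 86 (94.5%) had a negative difference, against 49.0% of all tested genes. The members are short, and short genes of all kinds, members included, were mostly negative too. Up to 600 bases 92.8% of all genes were negative (24 of 24 members), and from 600 to 1000 bases 91.0% were (29 of 29 members). In longer transcripts the share was lower among all genes than among members. It was 82.0% from 1000 to 1500 bases (18 of 18 members), 66.9% from 1500 to 2500 (11 of 13) and 31.7% above 2500 (4 of 7). With the trend on length taken out the median over members was -0.021, as given below by length. The median difference was -0.16 over the members and 0.0028 over all tested genes. With strata in the fit, 1 member was called lower (Cox6a1) and 0 were called higher, where the background over all tested genes was 1.15% lower and 0.511% higher. Without adjustment, the same fit put 46 lower and 0 higher members under a p of 0.05, beside 11.8% and 11.2% of all tested genes. With the group as the only term, 43 members were called lower and 0 higher, beside backgrounds of 12.7% and 11.7%. These backgrounds, each for its own fit and threshold, also apply to the counts by complex and by gene list below. All transgene libraries lay below all control libraries for 19 of the 91 tested members, beside 11.6% of all tested genes. In bulk tissue, fewer cells of a type and less RNA per cell cannot be told apart.

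**Figure D1:**
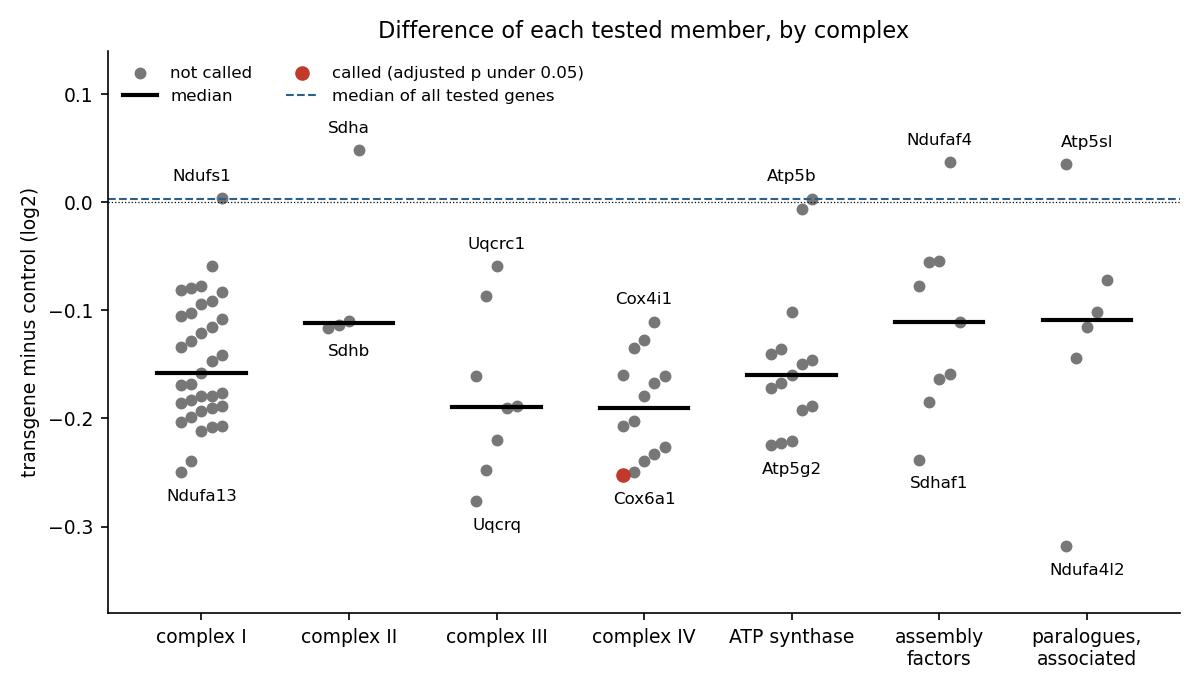
Difference of each tested member (log2, transgene minus control) by complex, with the median of each complex as a bar and the median of all tested genes as a dashed line. Medians run from -0.19 in complexes III and IV to -0.11 in complex II and the assembly factors, and Cox6a1 is the called member.

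Members of the chain moved together from library to library. The mean deviation of the tested members from their 9-library means was 0.022, -0.094, -0.079 and -0.178 in transgene replicates 1 to 4, against -0.038, 0.13, 0.106, 0.072 and 0.059 in control replicates 1 to 5. The groups therefore overlapped through stratum 1, where the transgene library was above the control library. Within stratum 1 the median difference was 0.058 and 70 of 91 members were positive. Within stratum 2 the median was -0.25, 89 of 91 members were negative, and limma in that stratum alone called 35 lower and 0 higher, beside backgrounds of 2.76% and 2.3%. Leaving out transgene replicate 1 gave 61 members called lower, beside a background of 6.54%. Leaving out control replicate 1 also gave 61, beside 6.57%. With either of these left out, stratum 1 adds nothing to the difference, which is then that of stratum 2. Both counts therefore rest on the same differences as the stratum 2 result. Leaving out transgene replicate 3 gave 1 (Ndufa4l2 in place of Cox6a1), and leaving out any of the other 6 libraries gave 0. Stratum 1 holds 1 library of each group, so its difference has no replicate check, and the difference between the strata was not tested. On the linear scale the members made up 3.08% ± 0.169 of summed normalised expression in transgene libraries (SD, n = 4) and 3.28% ± 0.140 in control libraries (SD, n = 5).

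**Figure D2:**
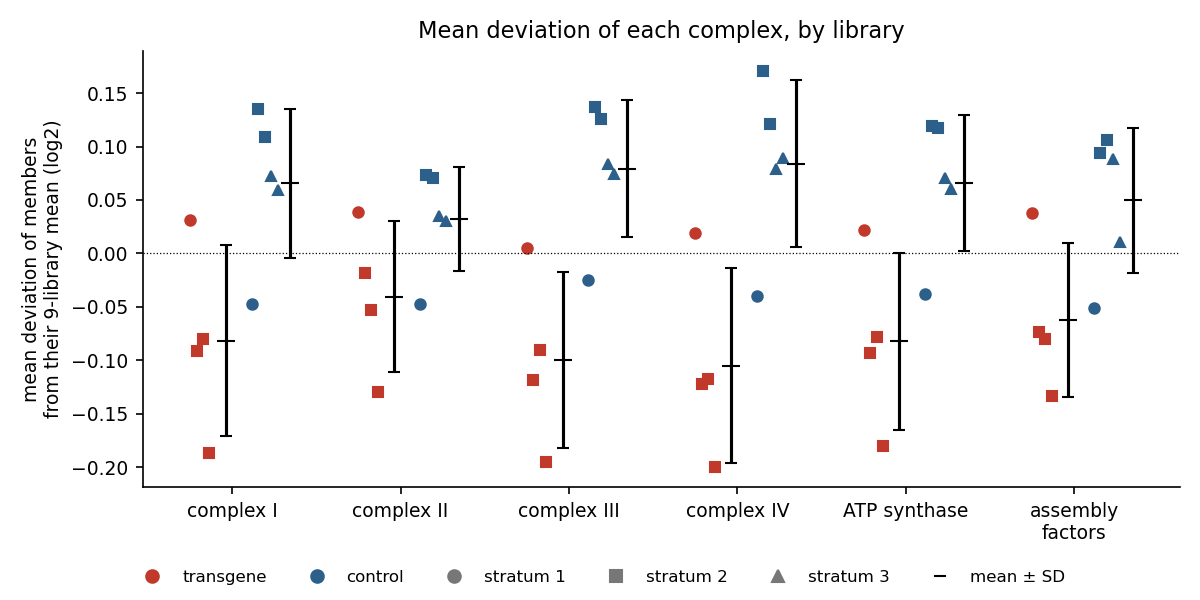
Mean deviation of the tested members of each complex from their 9-library means (log2), 1 point per library, with marker shapes for the strata and bars for mean ± SD (4 transgene and 5 control libraries). In each complex, transgene replicate 1 lies above control replicate 1, and the transgene libraries of stratum 2 lie below the controls of strata 2 and 3.

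**Figure D3:**
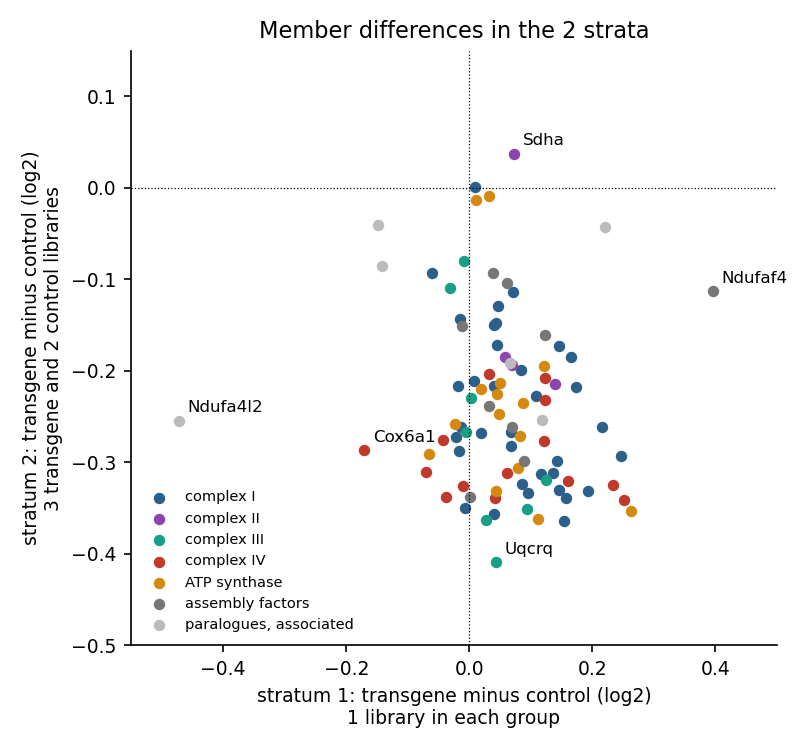
Difference of each tested member (log2, transgene minus control) within stratum 1 on the horizontal axis and within stratum 2 on the vertical axis, coloured by complex. Most points lie right of 0 in stratum 1 (70 of 91) and below 0 in stratum 2 (89 of 91).

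Complex I is the NADH dehydrogenase, with a catalytic core and many accessory subunits around it. Of its 35 tested subunits, 34 were negative, 0 were called with strata (18 lower at an unadjusted p under 0.05) and 16 were called lower with the group alone, with a median of -0.16. The 7 nuclear core subunits had a median of -0.15 and the 28 tested accessory subunits had a median of -0.17. Ndufs1, the largest core subunit and a carrier of iron-sulfur clusters, stood at 13.81, 13.83, 13.83 and 13.76 in transgene libraries, against 13.80, 13.80, 13.82, 13.81 and 13.80 in control libraries. The groups overlapped and its difference was 0.0036 (SE 0.05), the most positive of the complex. Ndufv1, which binds NADH and FMN, had a difference of -0.08. Among the other core subunits, Ndufs8 had a difference of -0.15, Ndufs3 of -0.16, Ndufs7 of -0.18 and Ndufv2 of -0.19.

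Ndufa13, an accessory subunit also known as GRIM-19, had the most negative difference of complex I. It stood at 12.64, 12.53, 12.47 and 12.42 in transgene libraries, against 12.64, 12.87, 12.78, 12.76 and 12.77 in control libraries. Each transgene library was below each control library, but the difference within stratum 1 was -0.0077. The difference was -0.25 (SE 0.07), with an adjusted p of 0.0864 in limma with strata and 0.00846 with the group alone. The accessory subunits Ndufa6 and Ndufa7 had differences of -0.24 and -0.21, with adjusted p-values of 0.105 and 0.0856 with strata. Ndufs5 was listed at 0 in every library of both groups and was not tested, and nothing is said here of its expression.

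Complex II, succinate dehydrogenase, is wholly nuclear-encoded and is shared with the citric acid cycle. Its 4 subunits had a median of -0.11 and 0 were called in either fit or had an unadjusted p under 0.05 with strata, beside a background of 24.4% called in either direction with the group alone. Sdha, the flavoprotein that oxidises succinate, stood at 14.70, 14.75, 14.61 and 14.68 in transgene libraries, against 14.62, 14.65, 14.63, 14.63 and 14.64 in control libraries. The groups overlapped, and its difference of 0.05 (SE 0.06) was the most positive of all members. Sdhb, the iron-sulfur subunit, had a difference of -0.12, and the membrane anchors Sdhc and Sdhd each had -0.11.

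Complex III, the cytochrome bc1 complex, had negative differences in all 8 members, with a median of -0.19. With strata 0 were called (6 lower unadjusted), and 5 were called lower with the group alone. Uqcrq, a small subunit of the complex, had the most negative difference of any subunit. It stood at 13.22, 13.02, 13.06 and 12.95 in transgene libraries, against 13.18, 13.46, 13.38, 13.33 and 13.34 in control libraries. Transgene replicate 1 lay above control replicate 1, and the other transgene libraries lay below all controls. The difference was -0.28 (SE 0.08, 17.4% lower), with an adjusted p of 0.0976 in limma with strata and 0.0119 with the group alone. Uqcr11, another small subunit, had -0.25, Uqcrb had -0.19 and Uqcrh, the hinge protein beside cytochrome c1, had -0.19. Uqcrfs1, the Rieske iron-sulfur protein that carries electrons to cytochrome c1, had -0.16. The 2 core proteins had the smallest differences of the complex, at -0.09 for Uqcrc2 and -0.06 for Uqcrc1.

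Complex IV, cytochrome c oxidase, also had negative differences in all 14 members, with a median of -0.19. With strata 1 was called lower, and with the group alone 8 were. Cox6a1, the ubiquitous isoform of subunit 6a, fell by 0.25 on the log2 scale (SE 0.05, 16.1% lower). It stood at 11.34, 11.22, 11.35 and 11.30 in transgene libraries, against 11.51, 11.63, 11.52, 11.53 and 11.58 in control libraries. The groups did not overlap, and the difference was negative in both strata, at -0.17 in stratum 1 and -0.29 in stratum 2. Its adjusted p of 0.0498 in limma with strata lies at the threshold and passed it under few other settings. It ran from 0.019 to 0.191 with 1 library left out, with 7 of the 9 values over the threshold, and was 0.411 with the trend on transcript length taken out, where the difference was -0.08. It was 0.0598 with no floor on low genes and 0.0513 with the libraries centred on their medians. The call was kept by the group-only fit (0.00212), a floor of 5 (0.0483) and stratum 2 alone (0.0487).

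The other members of complex IV had differences from -0.25 to -0.11. Cox5b and Cox5a, which sit on the outside of the catalytic core, had -0.23 and -0.21, with adjusted p-values of 0.101 and 0.1 with strata, and in both genes all transgene libraries lay below all controls. Cox7b had -0.23 and Ndufa4, first assigned to complex I and later found in complex IV, had -0.20. Cox6b1, which faces cytochrome c, had -0.13. Cox4i1, the common isoform of a subunit that binds ATP, had the smallest difference at -0.11.

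Each of the 3 muscle isoforms of complex IV was more abundant than its ubiquitous partner in both groups. Per kilobase of transcript and on the linear scale, Cox6a2 made up 82.9% ± 1.17 of the pair with Cox6a1 in transgene libraries and 81.6% ± 0.603 in control libraries. Cox7a1 made up 73.4% ± 0.428 of the pair with Cox7a2 in transgene libraries and 73.1% ± 0.625 in control libraries. Cox8b made up 79.9% ± 0.798 of the pair with Cox8a in transgene libraries and 80.0% ± 0.301 in control libraries (SD, n = 4 transgene and 5 control libraries throughout). The muscle isoform thus formed the larger part in each library, as in the skeletal and cardiac muscle of mice. The size of the Cox7a1 part rests on the lengths used, 393 bases for Cox7a1 and 659 for Cox7a2. Not divided by length, the log2 ratio of Cox7a1 over Cox7a2 was 0.72 in transgene libraries and 0.70 in control libraries.

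All 6 isoform genes had negative differences. Cox8b stood at 13.04, 12.96, 12.92 and 12.82 in transgene libraries, against 13.08, 13.26, 13.21, 13.16 and 13.20 in control libraries. Cox8a stood at 11.64, 11.48, 11.57 and 11.51 in transgene libraries, against 11.71, 11.89, 11.78, 11.76 and 11.83 in control libraries. In both genes of this pair each transgene library lay below each control library, and the differences were -0.25 (SE 0.07) for Cox8b and -0.24 (SE 0.06) for Cox8a. Adjusted p-values were 0.079 and 0.0689 in limma with strata, and 0.00669 and 0.00486 with the group alone. Cox7a1 and Cox7a2 had differences of -0.16 and -0.18 with overlapping groups. Cox6a2 stood at 13.96, 13.83, 13.72 and 13.83 in transgene libraries, against 13.83, 14.06, 13.99, 13.97 and 13.95 in control libraries. It overlapped through stratum 1, and its difference of -0.13 was smaller in size than that of Cox6a1.

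No shift between isoforms passed a test in these libraries. The log2 ratio of Cox6a2 over Cox6a1 was 2.61, 2.61, 2.36 and 2.53 in transgene libraries, against 2.32, 2.42, 2.47, 2.43 and 2.38 in control libraries. The ratio was higher in 3 of the 4 transgene libraries than in any control, with a difference of 0.12. The two-sided exact permutation test gave p = 0.0873, or 0.262 adjusted over the 3 pairs, where 126 splits allow no p under 0.00794. Permuted within strata, the exact test gave p = 0.3 where 0.05 is the smallest possible. The ratio of Cox7a1 over Cox7a2 differed by 0.02 (exact permutation p = 0.524, adjusted 0.786). The ratio of Cox8b over Cox8a differed by -0.01 (exact permutation p = 0.786, adjusted 0.786), with a sign that was positive in stratum 1 (0.032), turned just above 0 without transgene replicate 3 and to 0.016 without transgene replicate 4, and to 0.031 with the length trend taken out. With 1 library left out, ratio differences were plain differences of group means, without stratum terms. A p that misses the threshold does not show that the ratios were equal.

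**Figure D4:**
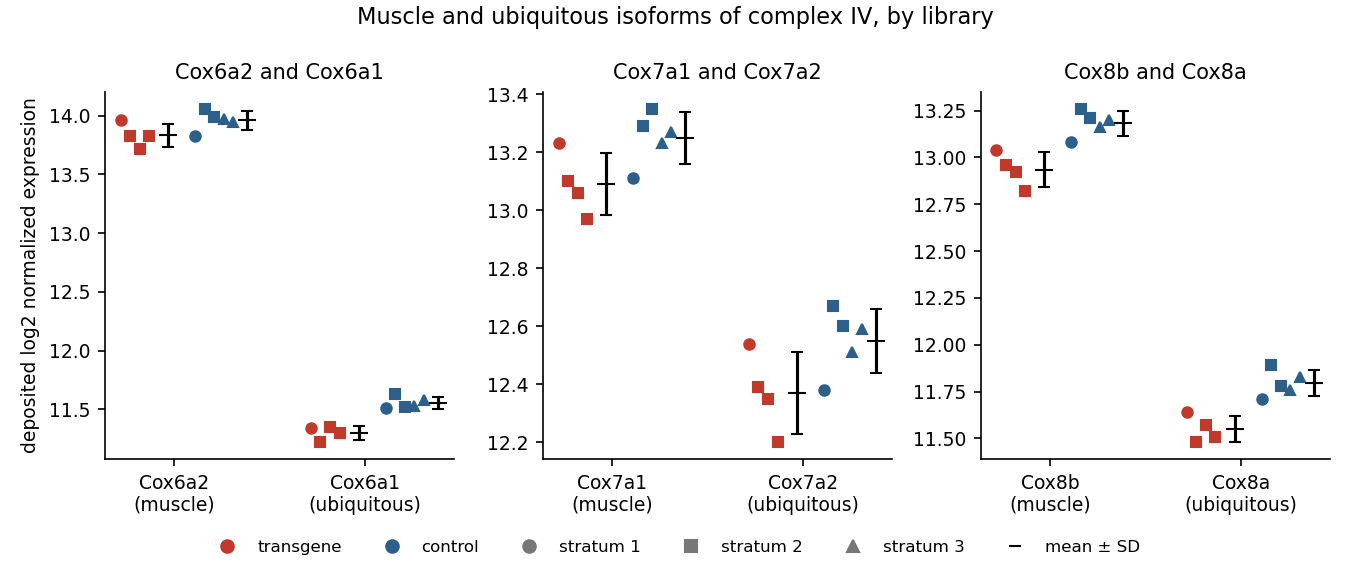
Log2 normalised expression of the muscle and ubiquitous isoforms of subunits 6a, 7a and 8 in each library, with marker shapes for the strata and bars for mean ± SD (4 transgene and 5 control libraries). The muscle isoform lies above its partner in each library, and the groups do not overlap for Cox6a1, Cox8b and Cox8a. Vertical axes do not start at 0.

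Promoter sequence is shown for Cox6a1, the called member, and for Cox8b and Cox8a, an isoform pair in which both genes were lower in each transgene library. Sequences are RefSeq promoters on GRCm38.p6, all on the minus strand and written 5′ to 3′ from the gene's strand. The window of Cox6a1 overlaps annotated exons, so its matches are shown with short flanks. Capitals mark matches to GCATGCG or its reverse complement CGCATGC, the core of the motif of the mitochondrial gene activator NRF1, to CCGGAAG or its reverse complement CTTCCGG, an ETS motif bound by GABP, and to CAGCTG, an E-box bound by myogenic factors.
Cox6a1, NRF1 motif, chr5:115349101-115349130: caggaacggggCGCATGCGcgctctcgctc
Cox6a1, ETS motif, chr5:115348959-115348988: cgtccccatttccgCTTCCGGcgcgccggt
Cox8b, chr7:140900447-140900696: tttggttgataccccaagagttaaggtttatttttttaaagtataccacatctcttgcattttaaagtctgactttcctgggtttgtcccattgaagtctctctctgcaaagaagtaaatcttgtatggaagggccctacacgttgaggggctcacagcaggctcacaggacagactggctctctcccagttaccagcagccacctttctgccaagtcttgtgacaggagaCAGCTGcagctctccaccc
Cox8a, chr19:7217617-7217866: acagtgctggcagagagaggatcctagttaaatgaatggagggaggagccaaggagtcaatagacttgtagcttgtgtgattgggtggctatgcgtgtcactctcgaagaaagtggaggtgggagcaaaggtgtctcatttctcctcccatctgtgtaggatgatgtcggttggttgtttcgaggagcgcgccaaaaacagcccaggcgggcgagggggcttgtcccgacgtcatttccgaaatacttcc

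In Cox6a1 the NRF1 core matched on both strands, overlapping, from -161 and -160, and the ETS motif began at -16 relative to the annotated start, and the E-box of Cox8b began at -19. The Cox8a window held none of these 3 motifs. In the 250 bases before the start, on both strands, GCATGCG was found in 12.5% of 80 windows of 75 members and in 3.02% of 32851 windows of all genes. CCGGAAG was found in 17.5% of member windows and 6.91% of all windows. CAGCTG was found in 7.5% of member windows and 13.0% of all windows. The median GC content was 56.8% in member windows and 52.4% in all windows. These matches are a description of letters and not of binding.

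The ATP synthase has a catalytic F1 head and a membrane Fo part with stalks. Of its 15 members, 14 were negative, 0 were called with strata (10 lower unadjusted) and 9 were called lower with the group alone, with a median of -0.16. The alpha and beta subunits of the head differed by less than their standard errors. Atp5b, the beta subunit, stood at 16.60, 16.57, 16.62 and 16.54 in transgene libraries, against 16.56, 16.57, 16.60, 16.58 and 16.58 in control libraries, a difference of 0.0034 (SE 0.07). Atp5a1, the alpha subunit, had a difference of -0.0059 (SE 0.06). Per kilobase of transcript these 2 had the highest log2 levels of all members, at 15.64 in both groups for Atp5b and 14.93 in both groups for Atp5a1. Atp5c1, the gamma subunit that turns within the head, had -0.16, and Atp5o, in the peripheral stalk, had -0.14.

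The c-ring, which turns as protons pass, is encoded by 3 genes for the same mature protein. Atp5g2 had the most negative difference of the ATP synthase, standing at 12.55, 12.49, 12.46 and 12.40 in transgene libraries, against 12.62, 12.76, 12.71, 12.68 and 12.71 in control libraries. All transgene libraries lay below all controls, with a difference of -0.22 (SE 0.06, adjusted p 0.0687 in limma with strata). Atp5g1 had a difference of -0.15 and Atp5g3 of -0.10. Per kilobase, Atp5g3 was the most abundant of the 3 in log2 level, at 14.76 in transgene libraries and 14.86 in control libraries, followed by Atp5g2 (12.93 and 13.15) and Atp5g1 (12.25 and 12.40). The order of Atp5g2 and Atp5g1 rests on the lengths used, 731 and 2655.5 bases, each a median over the gene's transcripts. Not divided by length, Atp5g1 (13.66 and 13.81) stood above Atp5g2 (12.47 and 12.70).

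The 9 assembly factors, which help to build complexes I and II without remaining in them, had a median of -0.11, and 0 were called with strata (3 lower unadjusted) while 3 were called lower with the group alone. Sdhaf1, which helps to load iron-sulfur clusters into Sdhb, had the most negative difference (-0.24, SE 0.07, adjusted p 0.1 with strata). Ndufaf4 had the most positive one (0.04, SE 0.10). It stood at 10.48, 10.37, 10.23 and 10.12 in transgene libraries, against 10.08, 10.33, 10.38, 10.34 and 10.18 in control libraries. The groups overlapped, and the difference was 0.40 in stratum 1 and -0.11 in stratum 2.

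Of the paralogues and associated proteins, 6 were tested and 0 were called with strata (1 lower unadjusted), while 2 were called lower with the group alone. Ndufa4l2, a hypoxia-inducible relative of Ndufa4, had the most negative difference of all members. It stood at 10.42, 10.25, 10.87 and 10.43 in transgene libraries, against 10.89, 10.80, 10.75, 10.77 and 10.85 in control libraries. Transgene replicate 3 lay within the controls and the other transgene libraries lay below them. The difference was -0.32 (SE 0.12), with an adjusted p of 0.166 in limma with strata and 0.0399 with the group alone, and it was negative in both strata. Without transgene replicate 3 the difference was -0.44 (adjusted p 0.0377 in limma with strata). Atp5sl had a difference of 0.03. Cox4i2, the paralogue known from lung, had a mean of 6.71 ± 0.11 (SD, n = 4) in transgene libraries and 6.81 ± 0.13 (SD, n = 5) in control libraries, a difference of -0.10. Cox6b2, known from testis, averaged 4.85 ± 0.03 (SD, n = 4) in transgene libraries and 4.93 ± 0.02 (SD, n = 5) in control libraries, a difference of -0.07. Cox7b2 averaged -0.83 in transgene libraries and -0.84 in control libraries, below the floor for testing, and Cox8c was listed at 0 in every library.

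The differences followed transcript length, as they did across the whole table. Members are short, with a median of 861 bases against 2889 for all tested genes with a length. Over 91 members Pearson's r between the difference and log2 length was 0.49 and Spearman's rho was 0.44, and over 14405 genes r was 0.57 and rho was 0.61. These points come from the same 9 libraries and are a description. In transcripts of at most 600 bases the median was -0.19 over 24 members and -0.17 over 180 genes of all kinds. Between 600 and 1000 bases it was -0.16 over 29 members and -0.14 over 722 genes. Between 1000 and 1500 bases it was -0.16 over 18 members and -0.09 over 1397 genes, and between 1500 and 2500 bases it was -0.08 over 13 members and -0.04 over 3530 genes. Above 2500 bases the medians were -0.11 over 7 members and 0.04 over 8576 genes.

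Long members lay near 0 in some cases, with Ndufs1 at 2661 bases, Sdha at 2900, Atp5a1 at 2471 and Atp5b at 1916, and below 0 in others, with Ndufab1 (-0.20) at 3479 bases and Sdhaf1 (-0.24) at 2490. With the trend below taken out, 25 of the 86 negative members turned positive, by 0.00025 to 0.147. The relation was 0.54 (r) among members within stratum 2 and -0.07 within stratum 1. With each library's trend on length taken out, the median over members was -0.021, and limma with strata called 0, beside a background of 0.0139%, with 6 lower and 1 higher at an unadjusted p under 0.05. With that trend taken out and the group as the only term, 5 were called lower and 1 higher, beside backgrounds of 6.99% and 6.28%, in a setting added after the values were seen. The 5 lower genes were Sdhaf1 (-0.22), Ndufab1 (-0.22), Uqcrq (-0.21), Ndufa13 (-0.16) and Sdhaf2 (-0.11). The higher gene was Ndufc1 (0.15), and all of these are differences with the trend taken out. Before that step Ndufc1, the shortest tested member at 315 bases, had a difference of -0.08. Ndufab1, the acyl carrier protein of mitochondria, and Ndufc1, a small accessory subunit of complex I, are named here after their values were seen.

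**Figure D5:**
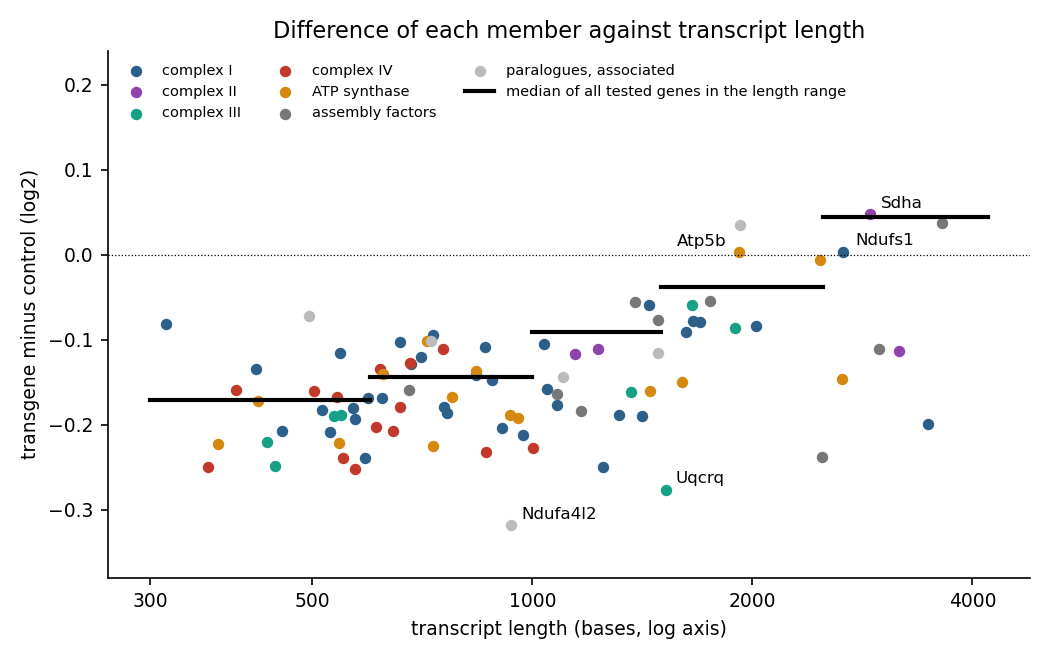
Difference of each tested member (log2, transgene minus control) against transcript length in bases on a log axis, coloured by complex, with bars for the median of all tested genes in 5 ranges of length. The medians of all genes run from -0.17 at the short end to 0.04 above 2500 bases, and over the members r is 0.49 (n = 91), with long members such as Ndufab1 (-0.20) and Sdhaf1 (-0.24) well below 0.

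The authors' deposited table of their own comparison holds 981 genes, of which 11 are members, all lower, beside a background of 3.16% of genes listed as lower. In the authors' deposited table the log2 fold change was -0.30 for Cox6a1, -0.29 for Uqcrq, -0.27 for Ndufa13, Cox8a, Cox8b and Uqcr11, -0.26 for Atp5g2, Ndufa6 and Cox5b, -0.24 for Ndufa7 and -0.23 for Cox5a. Adjusted p-values in the authors' deposited table ran from 0.00374 for Cox6a1 to 0.0469 for Ndufa6. Complex IV has 5 of these genes, complex I has 3, complex III has 2 and the ATP synthase has 1.

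Other genes of mitochondrial respiration gave few calls. The 13 subunits encoded by mitochondrial DNA were not analysed here. Of 7 carriers and subunits outside the naming rule, 1 was called lower with strata and 4 with the group alone, with a median of -0.16. The called gene was Atpif1, the inhibitor that blocks ATP hydrolysis by the synthase. It stood at 10.68, 10.57, 10.62 and 10.60 in transgene libraries, against 10.85, 11.00, 10.88, 10.87 and 10.95 in control libraries. The groups did not overlap, the difference was -0.29 (SE 0.05, adjusted p 0.0418 in limma with strata), and it was -0.12 (adjusted p 0.23) with the length trend taken out. With 1 library left out its adjusted p was over the threshold in 7 of 9 cases, and under it only without transgene replicate 1 or control replicate 1. With strata 0 genes were called in either direction among 30 further assembly factors, 18 citric acid cycle genes, 16 fatty acid oxidation genes, 18 regulators of mitochondrial biogenesis and 18 membrane transport genes. At an unadjusted p under 0.05 that fit had 1, 1, 3, 1 and 5 lower genes in these lists, in that order, and 1, 0, 0, 4 and 0 higher genes.

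With the group alone, the assembly factors had 1 gene called lower and 1 higher, and the citric acid cycle 2 lower and 1 higher. Fatty acid oxidation had 3 lower and 0 higher, the biogenesis regulators 1 lower and 5 higher, and membrane transport 5 lower and 0 higher. Over all tested genes, 12.7% were called lower and 11.7% higher in that fit. Medians of the lists were -0.054, -0.054, -0.055, 0.022 and -0.11 in that order. In stratum 1 they were 0.086, 0.025, -0.049, 0.063 and 0.035. With the length trend taken out they were 0.018, -0.0078, -0.026, 0.0097 and -0.065. The largest difference in each list was -0.20 for Cox14, an assembly factor of complex IV, 0.15 for Ogdh, a subunit of the oxoglutarate dehydrogenase complex, and -0.15 for Acadm, an acyl-CoA dehydrogenase. It was 0.36 for Ppargc1a, the coactivator PGC-1 alpha, and -0.22 for Tomm20, a receptor for protein import into mitochondria. Adjusted p-values of these 5 ran from 0.132 to 0.232 in limma with strata. In stratum 1 Cox14 (0.05), Ogdh (-0.05), Acadm (0.01) and Tomm20 (0.06) had the opposite sign, and Ppargc1a stood at 0.19. With the length trend taken out, Cox14 was at -0.05, Ogdh at 0.11, Acadm at -0.11, Ppargc1a at 0.26 and Tomm20 at -0.28. Ppargc1a stood at 11.46, 11.85, 11.18 and 11.69 in transgene libraries, against 11.28, 11.12, 11.17, 11.09 and 11.29 in control libraries, so the groups overlapped through transgene replicate 3.

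Markers of the cell types in the tongue were read for the same libraries. Fast muscle markers averaged 14.8 to 14.9 over transgene libraries and 14.8 to 15.1 over control libraries in log2 level, with a median difference of -0.13 over 12 genes, of which 8 were negative. That median was 0.047 in stratum 1 and 0.0064 without control replicate 3, and removing the length trend gave -0.0045. General muscle markers averaged 15.4 to 15.5 in both groups, with a median of -0.025 over 16 genes, 9 of them negative, which was 0.075 in stratum 1 and ran from -0.085 to 0.056 with 1 library left out. The largest difference in size of the fast, general and slow lists was 0.47 for Myh1, a fast myosin heavy chain, 0.45 for Ttn, the giant spring protein titin, and 0.20 for Atp2a2, the slow-fibre calcium pump. Other muscle genes went the other way, with Mylpf and Tnni2 of fast fibres at -0.22 and -0.21 and Tcap and myoglobin Mb at -0.22 and -0.20, named after their values were seen. With the length trend taken out, Myh1 was at 0.38, Ttn at 0.00058 and Atp2a2 at 0.15. Mylpf, Tnni2, Tcap and Mb were then at -0.07, -0.07, -0.10 and -0.09. In stratum 1 Mylpf, Tnni2, Tcap and Mb were positive, at 0.05, 0.05, 0.28 and 0.20. Myh1 stood at 0.22 there, Ttn at -0.0067 and Atp2a2 at -0.04. Of the slow fibre markers 6 of 10 were tested, 4 of them negative, with a median of -0.06 that ran from -0.10 to 0.0083 with 1 library left out, and Myh7, Myl2, Myl3 and Tnnc1 lay under the floor. With strata limma called 0 muscle genes, with 2, 0 and 1 lower and 0, 1 and 5 higher at an unadjusted p under 0.05 in the fast, slow and general lists, and with the group alone the fast list had 2 lower and 1 higher, the slow list 0 and 1, and the general list 1 and 6. Of 10 adipocyte genes 8 were tested, with a median of 0.03, 0 called with strata (1 higher unadjusted), and 1 called higher with the group alone. Ucp1 and Lep lay under the floor, and Cfd had the largest difference at 0.12.

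Epithelial and stromal markers gave 1 call. Basal keratinocyte markers averaged 12.9 to 13.1 over transgene libraries and 12.8 to 13.1 over control libraries, with a median of 0.06, 0 called with strata (2 higher unadjusted) and 2 called higher with the group alone. The basal median was -0.25 in stratum 1 and 0.19 in stratum 2, and -0.023 without control replicate 2. Dst, a plakin of basal cells with a transcript of 20206.5 bases, had the largest difference in size at 0.36. It stood at 0.02 in stratum 1. The basal keratins Krt14, Krt5 and Krt15, named after their values were seen, had -0.16, -0.10 and -0.06. With the length trend taken out, Dst was at 0.11 and these keratins at -0.10, -0.07 and -0.0065. Suprabasal markers averaged 14.3 to 14.6 over transgene libraries and 14.4 to 14.6 over control libraries, with a median of -0.10 that was -0.35 in stratum 1 and 0.019 in stratum 2. Krtdap, a keratinocyte differentiation protein, fell by 0.36 (adjusted p 0.0418 in limma with strata), with 3 genes of the list lower unadjusted and 3 called lower with the group alone. Its adjusted p was 0.28 with the length trend taken out, where the difference was -0.16, and ran from 0.0132 to 0.174 with 1 library left out, with 6 of the 9 values over the threshold. Endothelial markers averaged 10.6 to 10.9 over transgene libraries and 10.4 to 10.6 over control libraries, with a median of 0.20. The VEGF receptor Kdr had the largest difference at 0.39, and stood at 0.03 in stratum 1. Of the 10 endothelial genes 1 was negative. Fibroblast and matrix markers averaged 12.8 to 13.0 over transgene libraries and 12.4 to 12.7 over control libraries, with a median of 0.28. Fibrillin Fbn1 had the largest difference at 0.61, but stood at -0.06 in stratum 1. Of the 10 matrix genes 2 were negative, Dcn (-0.05) and Lum (-0.06), named after their values were seen. The endothelial median was 0.0037 in stratum 1 and 0.28 in stratum 2 and ran from 0.091 to 0.28 with 1 library left out, and the matrix median was 0.0064 in stratum 1 and 0.41 in stratum 2. With 1 library left out, Kdr ran from 0.20 to 0.54 and Fbn1 from 0.39 to 0.89, both lowest without control replicate 3 and both past the threshold only without transgene replicate 1 or control replicate 1. Neither list had a call with strata (5 and 7 higher unadjusted, beside 11.2% of all tested genes). With the group alone the lists had 5 and 6 genes called higher, beside 11.7% of all tested genes. These marker transcripts are mostly long, with median lengths of 4042 bases for the endothelial list and 5456 bases for the matrix list. With the length trend taken out, the endothelial median was 0.15 and the matrix median was 0.21. The part of these cell types in the values of the respiratory chain was not tested.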

How the data were processed

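RNA from whole tongue was measured in 4 transgene and 5 control libraries. Library preparation was stranded and from mRNA, with single-end reads from a HiSeq4000, per the labels' protocols. TopHat2, HTSeq, DESeq2 and the mm9 build are named, without versions, per the submitters' processing notes. The authors deposited log2 normalised expression. Counts per library were not analysed here, so the depth of each library and its precision are unknown. Low genes are nearly equal across libraries, as in a regularised log, so their differences may be understated. Of 20512 genes, 3064 were at exactly 0 in every library, and 1 row without a name was left out. The authors also deposited a table of log2 fold changes with a p-value, an adjusted p-value, a mean normalised signal, a linear ratio and a test score per gene.

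Testing took the 14490 genes that averaged 3 or more on the log2 scale, with limma 3.58.1 in R 4.3.3, with group and stratum terms and an intensity trend, two-sided. Strata were found as the 1 partition into 3 sets, of 3003 tried, that left no variation between sets beyond the group means. Stratum 1 carries 29.4% of the weight of a difference, stratum 2 carries 70.6% and stratum 3 none. On simulated data for this comparison over 14490 genes, 3.1% of unchanged genes had an unadjusted p under 0.05 with strata and 10.4% with the group alone. The fit with strata found 84% of differences of 0.5 and 14% of differences of 0.2. Transcript lengths came from GENCODE M21 (GRCm38) and promoters from RefSeq. Named members were the isoform pairs, tissue-restricted paralogues and their counterparts, catalytic or central members, and the extremes of each complex. They also took in members under the floor, members in the authors' table, and the largest difference of each list. The values of 1 such member are not reported here. Members, lists and tests were chosen with earlier results of these data known. Replicates were numbered in accession order. Alternatives were the group-only fit, other floors, length and median corrections, single strata and leaving out each library.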

Additional observations from a re-analysis of the deposited data

Results flagged for a closer look

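Of 112 groups of values from named members and scores, 1 held a library far from the others, where chance flags about 1 in 20. For Uqcrc2, a core protein of complex III, transgene replicate 4 stood at 13.89, and the other 3 transgene libraries lay between 13.98 and 13.99. Its difference was -0.09 and was -0.06 without that library.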

How the results depend on the processing

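The count of members called lower (1) was 43 with the group as the only term, 35 in stratum 2 alone and 46 at an unadjusted p. It was 0 with no floor, with the length trend removed, with libraries centred and with no intensity trend in the prior. It ran from 0 to 61 with 1 library left out. With the length trend removed and the group alone, a setting added after the data were seen, it was 5 lower and 1 higher. List genes called lower (2) were 22 with the group alone, 0 with the length trend removed, 6 in stratum 2 and 0 to 22 with 1 library left out; those called higher (0) were 29, 0, 7 and 0 to 19. The median over members was -0.021 with the length trend removed, -0.25 in stratum 2, 0.058 in stratum 1 and -0.25 to -0.11 with 1 library left out. In the same order, complex I had -0.018, -0.26, 0.068 and -0.26 to -0.11, complex II -0.017, -0.19, 0.072 and -0.19 to -0.074, and complex III -0.032, -0.29, 0.015 and -0.29 to -0.15. Complex IV had -0.029, -0.31, 0.051 and -0.31 to -0.14, and the ATP synthase -0.028, -0.25, 0.049 and -0.25 to -0.12. The assembly factors had -0.0060 with the length trend removed and 0.061 in stratum 1. In stratum 1 the ratio of Cox6a2 over Cox6a1 differed by 0.29, that of Cox7a1 over Cox7a2 by -0.038 and that of Cox8b over Cox8a by 0.032. The ratio of Cox8b over Cox8a turned to 0.031 with the length trend removed. With 1 library left out its difference ran from -0.040 to 0.016, as plain differences of group means without stratum terms. Bmi1 (2.44) passed with the group alone (adjusted p 0.00719 in limma) and ran from 1.77 without transgene replicate 3 to 2.74. With the length trend removed, 25 of 86 negative members turned positive, among them Uqcrc1 (0.0013), Atp5a1 (0.012), Atp5g3 (0.046), Cox4i1 (0.031), Cox4i2 (0.044), Cox6a2 (0.025), Cox6b1 (0.028), Cox6b2 (0.11) and Cox7a1 (0.047). Atp5a1 (-0.0059) ran from -0.014 to 0.0070 with 1 library left out, positive without transgene replicate 4 or control replicate 3, Atp5b was -0.0084 in stratum 2 and ran from -0.0091 to 0.018, Ndufs1 ran from -0.0047 to 0.021, and Ndufaf4 turned to -0.11 in stratum 2 and without either library of stratum 1. The cause was not tested. No paired analysis was possible because replicates were numbered in accession order and pair no libraries. Depth limits could not be set without counts per library.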
